A study of Mus musculus with 39 samples.

Results

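The 36 genes described here belong to the machinery of the cell division cycle, and they were followed through diets and time in mouse subcutaneous fat. They were chosen by name, as well known genes of DNA replication and mitosis, and all 36 were found among the 29411 gene names of the arrays (Cdk1 under its older name Cdc2a). Of these, 10 act around entry into S phase and are called G1/S genes, and 26 act in G2 and mitosis and are called G2/M genes. The study fed C57BL/6J mice, weaned at 3 to 4 weeks of age and divided at random, 5 diets and profiled total RNA of the subcutaneous adipose depot on 39 Agilent 1-colour arrays. The low-fat control diet (LFC, 10 arrays) took 10% of its calories from fat, and the high-fat diet (HFC, 11 arrays) took 60% from fat and held more sucrose. The other 3 groups ate the high-fat diet together with the plant-based formulation KAL-1 in doses of 5 µg (HF5), 20 µg (HF20) and 75 µg (HF75), and had 6 arrays each from Week 3 to Week 18. LFC and HFC were also measured on Day 6, 10 and 14 and at Week 0, here called the early time points, and HFC alone at Day 1. The weeks appear to have been counted after Day 14, so Day 14 and Week 0 stand for about the same age.

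Each diet had 1 array at a time point, so no difference at a single time point could be set against a replicate. The series text speaks of 3 biological replicates per diet and the labels of 5 animals sacrificed per group every 3 weeks, while the files hold 1 array per diet and time point. Whether an array held 1 mouse or a pool is not given in the sources used here, so n counts arrays. Time is also age, since the early arrays came from the younger mice, and each scan day held arrays of 1 time point, so age, time on the diet and scan day cannot be told apart in any comparison of early with late. In whole tissue, fewer cycling cells and less of these RNAs per cycling cell cannot be told apart either.

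The share of probes well above background ran from 49.3% to 87.8% over the arrays, and the 75th percentile intensity from 108 to 1285. On the early arrays of LFC and HFC the share ran from 66.3% to 84.1% and the intensity from 438 to 1243. On their arrays of Week 3 to Week 18 these ran from 52.1% to 70.4% and from 108 to 1130. The adipocyte genes Adipoq, Plin1 and Fabp4 were well above background on all 39 arrays. The skeletal muscle markers (13 of 13 well above background on at least 20% of the arrays) had their highest mean levels on the HF75 array of Week 3, at 7.46, and the HFC array of Day 1, at 6.17. The mean of the lymphocyte markers (15 of 16 detected) was 1.82 on the LFC array of Week 3 and lay between -5.09 and -0.22 on the other 38. The HF5 array of Week 12 also had high muscle markers, at 5.52. The HF20 array of Week 15 had 4936 outlier spots, against at most 474 on any other array, the highest share of probes well above background, and an erythroid marker mean (6 of 8 detected) of 2.19, where the other arrays of that week lay between -2.48 and -1.49. These 5 arrays stood apart, and that of Day 1 entered no test. Here and below, a level is the log2 intensity of a gene minus that of the 75th percentile of its array, so a level of 0 is at that percentile, and a difference of 1 between arrays is a doubling.

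In the division cycle, cyclin E, encoded by Ccne1 and Ccne2, drives entry into S phase, where Mcm2 to Mcm7 form the helicase that opens the DNA, Pcna holds the polymerase on it and Rrm2 is a subunit of the enzyme that makes deoxynucleotides. Cyclin A and cyclin B with Cdk1 then carry the cell into mitosis, in which kinases, kinesins and checkpoint proteins build the spindle and separate the chromosomes. Mature adipocytes do not divide, whereas progenitors, endothelial cells and immune cells of the same tissue can. Mitotic genes are known to share promoter elements, a CCAAT box bound by NF-Y and the cell cycle homology region TTTGAA, and many replication genes carry E2F sites.

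The promoters of the members are shown because the G2/M genes moved together over the arrays, as described below. RefSeq windows of 300 bases (GRCm38.p6, 250 before to 50 after the start) were found for 30 of the 36 genes, 8 of them G1/S and 22 G2/M. Both strands were searched for CCAAT as the NF-Y box, for TTTGAA as the homology region and for TTTCGCGC or TTTGGCGC as E2F letters. CCAAT was in 20 of the 22 G2/M windows (90.9%) and 7 of the 8 G1/S windows, against 37.9% of the windows of all 27025 genes. TTTGAA was in 17 of 22 G2/M windows (77.3%) and 1 of 8 G1/S windows, against 18.1% of all genes. Windows with both were 17 of 22 among G2/M genes and 1 of 8 among G1/S genes, against 7.12% of all genes. The E2F letters were in 4 of 8 G1/S windows and 1 of 22 G2/M windows, against 0.833% of all genes. Here are the 150 bases before the start of 3 G2/M genes and 2 G1/S genes, 5′ to 3′ on the strand of the gene, with these motifs in capitals (on the other strand the NF-Y box reads ATTGG, the homology region reads TTCAAA, and the E2F letters read GCGCGAAA or GCGCCAAA).
Cdk1, chr10:69352913-69353062, minus strand: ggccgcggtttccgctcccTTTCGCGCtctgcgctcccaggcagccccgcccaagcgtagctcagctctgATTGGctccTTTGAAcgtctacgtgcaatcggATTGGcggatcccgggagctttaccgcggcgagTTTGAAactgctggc
Top2a, chr11:99024190-99024339, minus strand: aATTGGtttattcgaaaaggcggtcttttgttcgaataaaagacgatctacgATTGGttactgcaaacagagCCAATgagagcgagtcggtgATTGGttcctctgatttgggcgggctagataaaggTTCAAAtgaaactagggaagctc
Ccnb2, chr9:70421555-70421704, minus strand: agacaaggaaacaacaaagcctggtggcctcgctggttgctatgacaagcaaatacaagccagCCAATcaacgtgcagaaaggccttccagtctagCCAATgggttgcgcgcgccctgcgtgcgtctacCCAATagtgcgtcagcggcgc
Mcm5, chr8:75109359-75109508, plus strand: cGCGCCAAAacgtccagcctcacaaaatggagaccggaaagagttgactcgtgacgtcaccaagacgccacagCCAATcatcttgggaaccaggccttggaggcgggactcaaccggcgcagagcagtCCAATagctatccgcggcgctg
Mcm6, chr1:128359706-128359855, minus strand: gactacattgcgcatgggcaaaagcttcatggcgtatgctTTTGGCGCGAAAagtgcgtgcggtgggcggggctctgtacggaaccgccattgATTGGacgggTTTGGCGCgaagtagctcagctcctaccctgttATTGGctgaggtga
Cdk1, the mitotic kinase, held 2 CCAAT boxes, 2 TTTGAA letters and 1 E2F match in this stretch. Top2a, the topoisomerase that untangles chromosomes, held 4 CCAAT boxes and 1 TTTGAA. Ccnb2, a mitotic cyclin, held 3 CCAAT boxes here. The helicase genes Mcm5 and Mcm6 held E2F letters and CCAAT boxes and no TTTGAA, and the first E2F matches of Mcm6 overlap. A match is a description of the letters and not a site of binding.

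**Figure D1:**
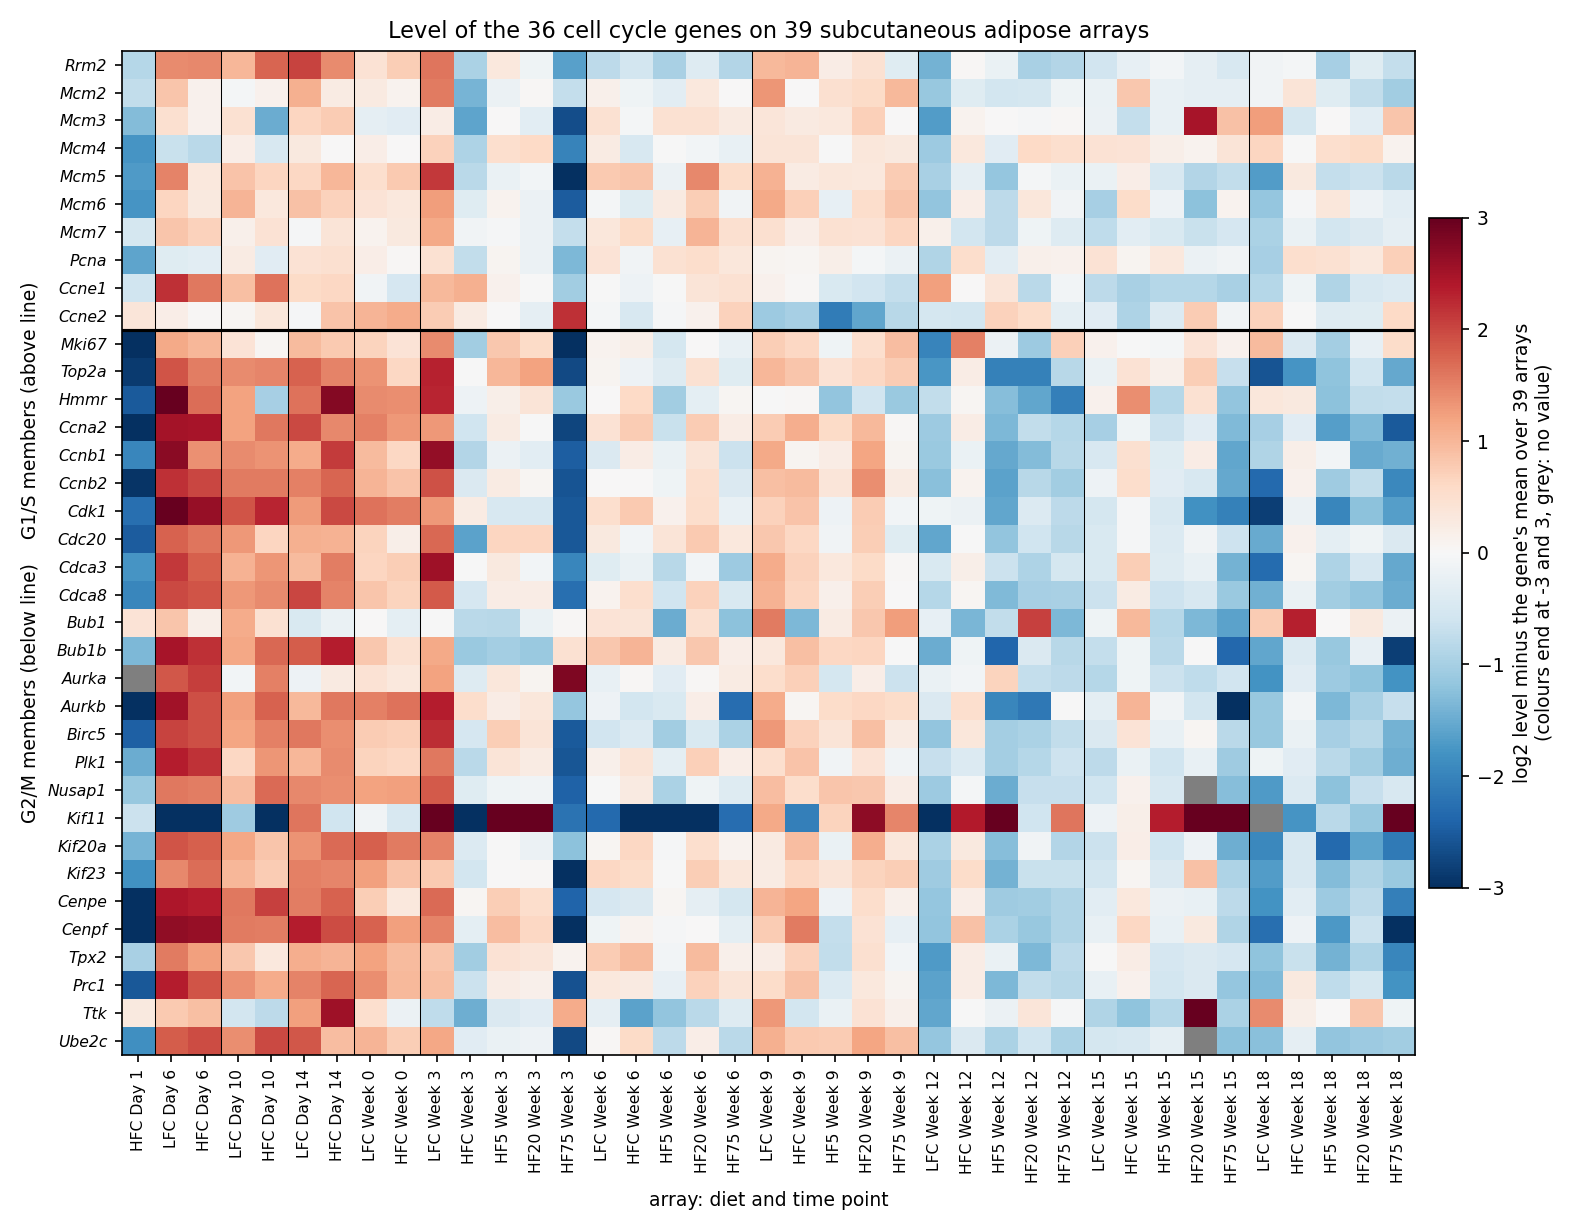
Log2 level of each of the 36 genes (rows) on each of the 39 arrays (columns, by time point and diet), less the gene's own mean over the arrays. Red is above and blue below that mean, colours end at -3 and 3, and grey has no value. The arrays of Day 6 to Week 0 and the LFC array of Week 3 were red for most G2/M genes, and the HFC array of Day 1 and the HF75 array of Week 3 were blue.

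The G2/M genes varied together from array to array more closely than the G1/S genes did. Over the 39 arrays the median correlation between pairs of G2/M genes was 0.76 (325 pairs, from -0.46 to 0.97), and between pairs of G1/S genes 0.34 (45 pairs). Ccnb2 (median correlation of 0.90 with the other G2/M genes), Cdca8, a part of the chromosomal passenger complex (0.90), and Prc1, which bundles microtubules in the central spindle (0.89), followed the G2/M genes most closely. Among the G1/S genes, Mcm5 (0.77) and Rrm2 (0.76) followed them as well, whereas Ccne2 did not (-0.16). With the mean of each time point removed, the median over pairs of G2/M genes was 0.62 on 38 arrays, and over pairs of G1/S genes 0.38. All these values share the same arrays and the same scaling, and are given without a test.

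Of the G2/M genes, 3 departed from the rest. Kif11, a spindle kinesin, had levels from -8.69 to 3.05 and a correlation of -0.16 with the mean of the other G2/M genes, and its second probe, for the same transcript, had a correlation of 0.76. Bub1, a kinase of the spindle checkpoint, had a correlation of 0.097 with that mean by the probe used and 0.94 by its other probe. Ttk, another checkpoint kinase, was well above background on 3 of 39 arrays and was not tested. Without these genes the median over pairs was 0.84. The 36 genes had 1 probe in 18 cases and several in the others, and the brightest probe stands for the gene. Those of Ccnb1 and Mki67 were annotated with predicted transcripts. The Mki67 probe had a correlation of 0.69 with the other G2/M genes and its other probe 0.87. For Ccnb1 the late minus early difference, given below, was -1.40 by the probe used against -2.13 to -1.55 for its other 4 probes.

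Most G2/M genes had lower levels at the late than at the early time points, and Cdk1, Ccna2 and Prc1 passed the test over all genes. On the 8 early arrays of LFC and HFC, Cdk1 ranged from -1.82 to -0.10 with a median of -1.17, and on the 12 late arrays from -5.92 to -1.80 with a median of -2.99. The ranges touched only through the LFC arrays of Day 14 and Week 3. Ccna2, the cyclin of S and G2 phase, ranged from -0.30 to 0.98 early (median 0.03) and from -2.60 to -0.21 late (median -1.47), and its ranges met only through the LFC array of Week 3. Prc1 ranged from 0.29 to 1.67 early (median 0.76) and from -2.30 to 0.21 late (median -0.45), and all of its late arrays lay below all of its early arrays. No other member had groups that did not overlap, against 0.0583% of all genes tested that did, or 0.0486% with all late arrays below.

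By limma with diet as a covariate, Cdk1 differed by -1.98 (SE 0.40, adjusted p = 0.0425, n = 12 late and 8 early arrays), Ccna2 by -1.71 (SE 0.34, adjusted p = 0.0408) and Prc1 by -1.56 (SE 0.32, adjusted p = 0.0425). Of 20593 genes tested, 43 were called (0.209%), 28 of them lower (0.136%), and the median difference of all genes was -0.02. All 10 G1/S genes and 25 of 26 G2/M genes had entered the fit. At an unadjusted p under 0.05, 22 of the 25 G2/M genes and 3 of the 10 G1/S genes were lower and none was higher, against 6.76% of all genes lower and 6.23% higher. The difference was below 0 for 23 of 25 and 9 of 10, against 51.5% of all genes. The median difference was -1.40 for the G2/M genes (from -1.98 to 0.69) and -0.48 for the G1/S genes (from -1.37 to 0.24).

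**Figure D2:**
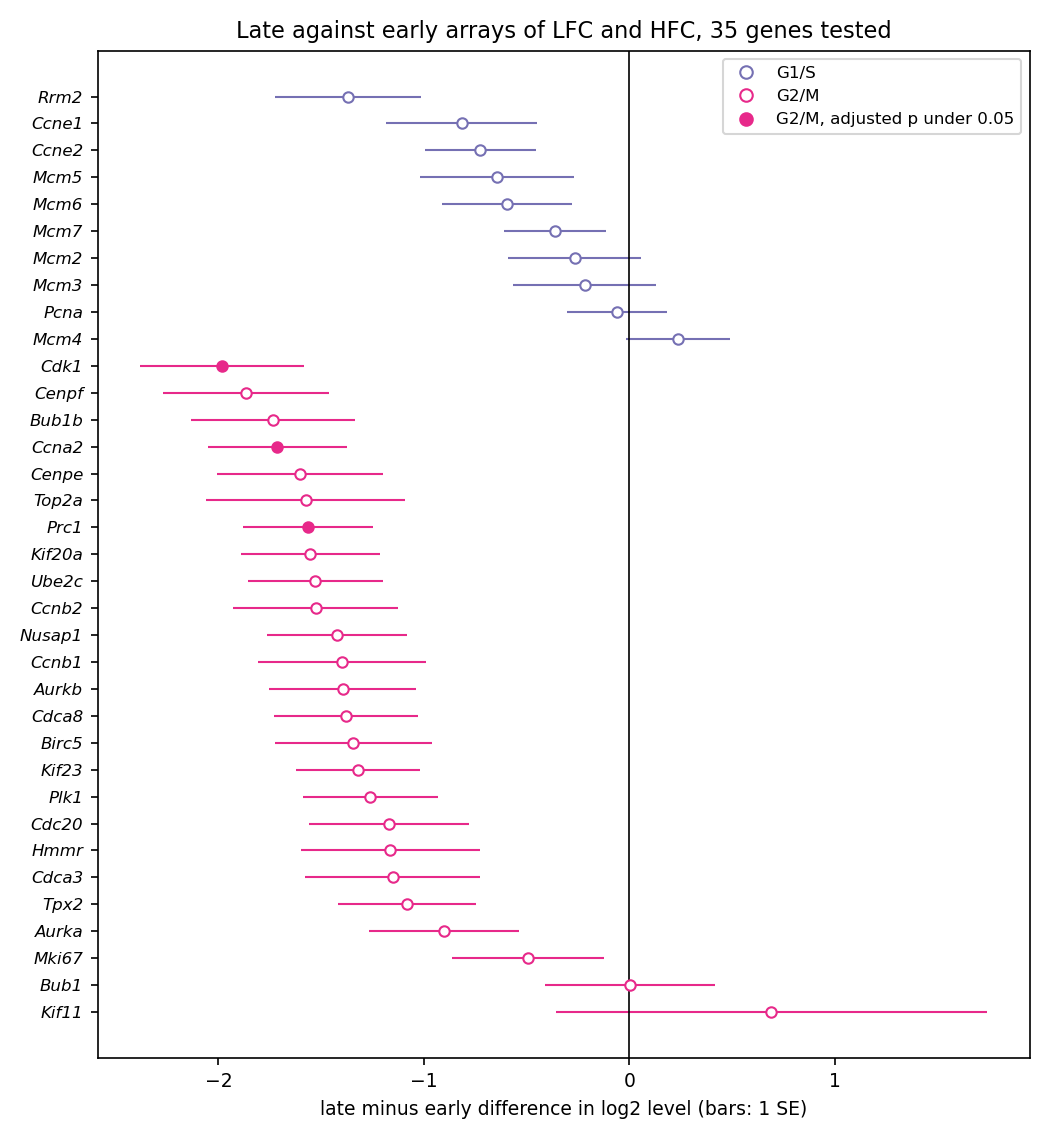
Late minus early difference in log2 level for the 35 genes tested, with bars of 1 SE from limma (12 late and 8 early arrays of LFC and HFC). Filled points mark the 3 genes with an adjusted p under 0.05. The G2/M genes sit between -1.98 and -0.90 except for Mki67, Bub1 and Kif11, and the G1/S genes between -1.37 (Rrm2) and 0.24.

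Arrays of 1 time point share an age and, other than at Day 6, Week 6 and Week 12, a scan day, and the 3 calls rest on treating them as independent. With time point as a random block the adjusted p was 0.159 for Cdk1, 0.159 for Ccna2 and 0.219 for Prc1, with scan day as a random block it was 0.151, 0.145 and 0.184, and no member was called. For the late against early level without the LFC array of Week 3, 17 members and 119 genes were called in place of 3 and 43. Without both arrays of Week 3, 17 members were called as well, and it was 0 when any of Day 6, 10 and 14 or Week 0, 12 and 15 was left out. The sign did not depend on these choices: 23 or more of the 25 G2/M genes had a difference below 0 in each of them.

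Among the other G2/M genes, the levels of Top2a ran from -2.45 to -1.16 early (median -1.59) and from -5.65 to -0.76 late (median -3.03), a difference of -1.58 (SE 0.48, limma adjusted p = 0.172). The LFC array of Week 3 was the highest of all, and without it the late arrays reached no higher than -2.06. Ccnb1, a cyclin B, went from a median of -1.74 early to -3.17 late (difference -1.40, SE 0.41, limma adjusted p = 0.155). Mki67, whose protein coats mitotic chromosomes and is a common proliferation marker, had medians of 2.09 and 1.52 (difference -0.49, SE 0.37, limma adjusted p = 0.585). Its other probe differed by -1.0 between the same arrays, and the other probes of Bub1 and Kif11 by -1.50 and -1.37, against 0.004 and 0.65 for the probes used.

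Of the G1/S genes, Rrm2 and Ccne2 had the smallest p. Rrm2 ran from -2.15 to -0.55 early (median -1.16) and from -3.99 to -0.97 late (median -2.75), a difference of -1.37 (SE 0.35, limma adjusted p = 0.104). Ccne2 had medians of -4.69 and -5.37 (difference -0.73, SE 0.27, limma adjusted p = 0.269), and was well above background on 6 of the 12 late arrays. Pcna had medians of 3.76 and 3.71 (difference -0.06, SE 0.24, limma adjusted p = 0.929) and Mcm2 medians of -1.27 and -1.52 (difference -0.27, SE 0.33, limma adjusted p = 0.744). The late arrays of Pcna (2.64 to 4.16) and Mcm2 (-2.85 to 0.095) reached both below and above the early ones (3.28 to 4.11 and -1.53 to -0.40), while the periods of Rrm2 shared only the stretch from -2.15 to -0.97. Without Day 14 the difference of Pcna was 0.075.

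LFC and HFC each gave this picture. In LFC, 24 of 26 G2/M genes had a lower late mean than early mean, with a median difference of -1.45, and in HFC 25 of 26 did, with a median of -1.33. Without the array of Week 3 the median in LFC was -1.84. The G1/S medians were -0.34 in LFC and -0.41 in HFC. No member had a test of the difference between the diets in this change with an adjusted p under 0.05, and 0 of 19862 genes did (375 or 1.89% at an unadjusted p under 0.05, none of them a member). The smallest p of the members were those of Ccne2, at -0.63 (SE 0.34, limma adjusted p = 1) and 0.049 with quantile normalization, and Cenpf, at 0.96 (SE 0.68, limma adjusted p = 1).

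Other genes of the division cycle were counted in 4 further lists. Of 60 further G2/M genes tested, 9 were called lower and 45 were lower at an unadjusted p under 0.05, with a median difference of -1.17, against 0.136% of all genes called lower, 6.76% lower and 6.23% higher at an unadjusted p under 0.05. Aspm, a spindle pole protein, differed by -1.89 (SE 0.32, limma adjusted p = 0.0299) and Pbk, a mitotic kinase, by -2.04 (SE 0.35, limma adjusted p = 0.0299). These calls have the same limit as those of the members, since 1 gene of all genes was called with scan day or time point as a random block. Of 34 further replication genes, 0 were called and 12 were lower at an unadjusted p under 0.05 (median -0.38). Of 17 genes of G1 cyclins, their kinases, Rb and E2F, 0 were called, 2 were lower at an unadjusted p under 0.05, near the share of all genes, and the median was -0.25. Of 14 inhibitors of cyclin-dependent kinases and genes of p53 arrest, 0 were called and 4 were higher at an unadjusted p under 0.05, with Trp53 at 1.28 (SE 0.32, limma adjusted p = 0.102) and Mdm2, which degrades p53, at 0.80 (SE 0.26, limma adjusted p = 0.201).

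The markers of skeletal muscle were higher on average on the early arrays, with overlapping ranges. Their mean level ranged from -2.85 to 4.85 early (median 0.21, mean 0.78) and from -4.17 to 1.1 late (median -2.27, mean -1.73), and the arrays of Day 6 were at 4.22 in LFC and 4.85 in HFC. The lymphocyte marker mean ranged from -4.04 to -2.06 early (median -3.25) and from -4.97 to 1.82 late (median -3.15). The adipocyte marker mean (12 of 12 detected) ranged from 3.48 to 5.56 early (median 4.35) and from 1.86 to 5.51 late (median 4.17). Early and late medians were 3.34 and 3.84 for the progenitor and fibroblast markers, and 3.895 and 3.532 for the endothelial markers. For the macrophage markers they were 0.84 and 1.26, and the ranges overlapped in each list. The share of probes well above background was 66.3% to 84.1% on the early arrays and 52.1% to 70.4% on the late ones. The part of the markers and of this share in the result was not tested.

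**Figure D3:**
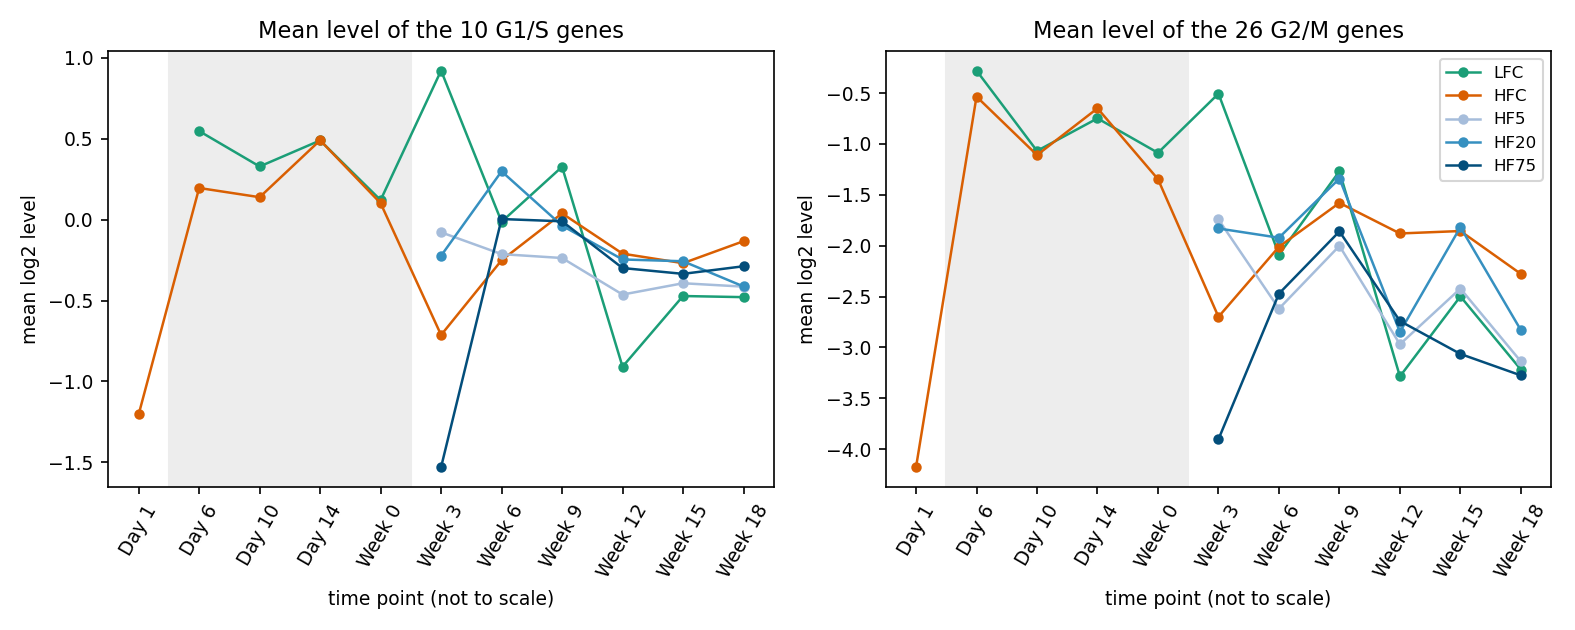
Mean log2 level of the 10 G1/S genes (left) and the 26 G2/M genes (right) on each array, with 1 point per array, diets in colour and the early time points shaded. Genes without a value on an array are left out of its mean. The G2/M mean was between -1.35 and -0.28 on the early arrays and between -3.90 and -0.51 on the arrays of Week 3 to Week 18.

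The G2/M means leave out genes without a value on an array. These were Aurka on the HFC array of Day 1 and Kif11 on the LFC array of Week 18. Nusap1 and Ube2c had none on the HF20 array of Week 15. Averaged over the 26 genes in this way, the G2/M level was highest at Day 6, at -0.28 in LFC and -0.53 in HFC, and was between -1.35 and -0.65 on the other early arrays. From Week 3 on, it was between -2.62 and -1.92 at Week 6, between -2.002 and -1.268 at Week 9, between -3.29 and -1.88 at Week 12, between -3.07 and -1.82 at Week 15 and between -3.28 and -2.28 at Week 18. Week 3 spread the most, from -3.90 in HF75 to -0.51 in LFC. The HFC array of Day 1 had the lowest level of all, at -4.18, with the high muscle marker level given above. The G1/S mean was between 0.10 and 0.55 on the early arrays and between -0.91 and 0.33 on those of Week 6 to Week 18. It too spread the most at Week 3, from -1.53 in HF75 to 0.92 in LFC, and was -1.20 on the HFC array of Day 1.

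Within Week 3 to Week 18, 22 of 25 G2/M genes had negative slopes, but no member passed the test. Over the 30 arrays, with the diets as covariates, 20 of 21007 genes were called for a change per week (0.0952%), none of them a member. At an unadjusted p under 0.05, 14 of 25 G2/M genes and 2 of 10 G1/S genes had a negative slope and none a positive one, against 6.3% of all genes with a negative slope and 9.24% with a positive one. Aurka, a spindle pole kinase, had a slope of -0.12 per week (SE 0.03, limma adjusted p = 0.0600), Kif20a, a kinesin of cytokinesis, -0.11 (SE 0.03, limma adjusted p = 0.0762) and Tpx2, which activates Aurka, -0.10 (SE 0.02, limma adjusted p = 0.0952). Mcm7 had -0.06 (SE 0.02, limma adjusted p = 0.153) and Ccne1 -0.06 (SE 0.02, limma adjusted p = 0.173). The 14 G2/M genes became 2 without Week 18 (3.65% of all genes), 8 without the LFC array of Week 3 (7.02%) and 21 without the HF75 array of Week 3 (5.78%). It was 8 with scan day (2.33%) and 8 with time point (2.41%) as a random block. The median slope was -0.06 for G2/M genes and -0.02 for G1/S genes. Without Week 3, 15 members and 2873 genes were called, without the HF75 array of Week 3 alone 3 members, without the HF5 array of Week 12 alone 1 member (Aurka), and with scan day as a random block 0 genes.

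HFC and LFC did not differ detectably for any member over the 10 time points that held both. None of the 35 members had an unadjusted p under 0.05, against 5.86% of the 19862 genes, and limma called 0 genes after adjustment. The smallest p among G2/M genes was that of Aurka, whose difference was 0.32 (SE 0.27, limma adjusted p = 0.841) and whose HFC level was the higher one at 8 of the 10 time points. Cdk1 differed by 0.31 (SE 0.29, limma adjusted p = 0.849). Without each time point in turn, Cdk1 ran from 0.053 (without Week 18) to 0.46 (without Week 3) and Aurka from 0.18 (without Day 10) to 0.53 (without Week 3). With normexp background correction Cdk1 turned to -0.28. Of the G1/S genes, Mcm3 differed by -0.52 (SE 0.33, limma adjusted p = 0.810) and Mcm4 by -0.29 (SE 0.25, limma adjusted p = 0.839), the latter lower in HFC at 9 of 10 time points. In the same way Mcm3 ran from -0.78 (without Week 12) to -0.36 (without Day 10) and Mcm4 from -0.48 (without Week 12) to -0.14 (without Week 3). The fit of Week 3 to Week 18 also gave 0 genes (1061 or 5.05% at an unadjusted p under 0.05, no member among them). There Kif20a was at 0.48 (SE 0.32, limma adjusted p = 0.849) and Cenpf at 0.71 (SE 0.55, limma adjusted p = 0.853), each higher in HFC at 5 of 6 weeks, and Mcm2 at -0.38 (SE 0.36, limma adjusted p = 0.879). Without the LFC array of Week 3 Kif20a was at 0.85 and Cenpf at 1.09, and without each week in turn they ran from 0.28 to 0.95 and from 0.43 to 1.21, lowest without Week 18 and highest without Week 3. With normexp their signs turned, to -0.14 and -0.17, and without Week 3 that of Mcm2 did, to 0.14.

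**Figure D4:**
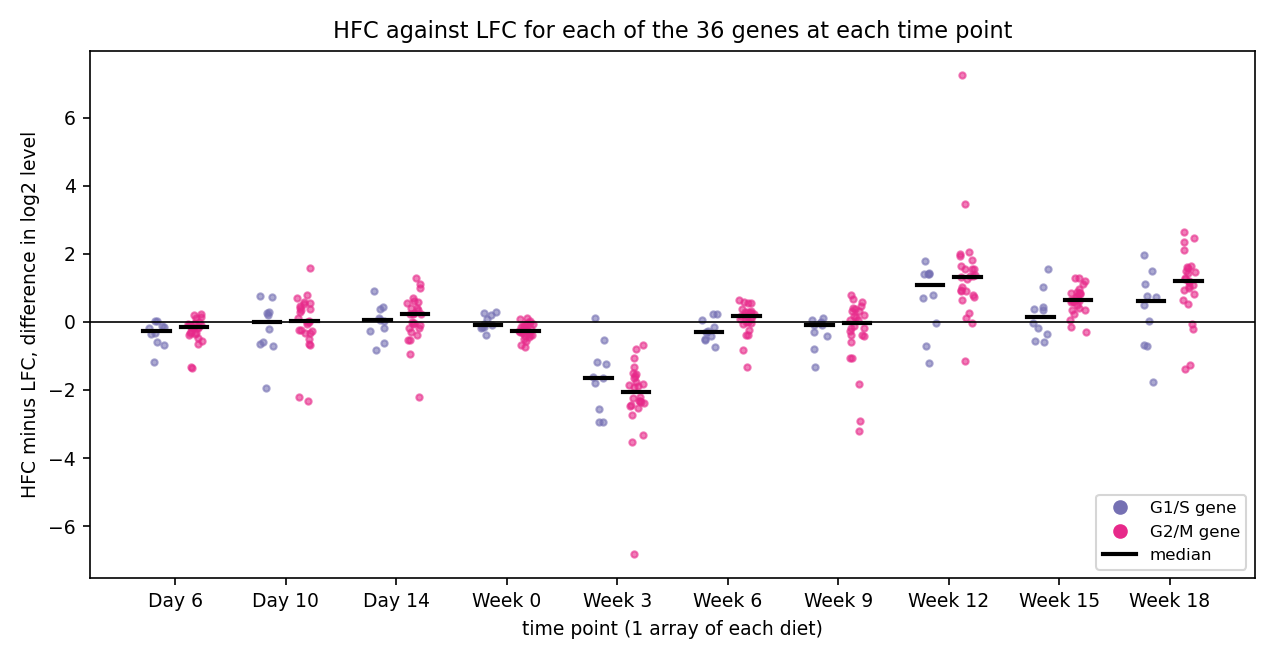
HFC minus LFC difference in log2 level for each of the 36 genes (points) at each of the 10 time points, with the median of the G1/S and of the G2/M genes as black bars. Kif11 has no point at Week 18. The points gather near 0 at the early time points, lie below 0 at Week 3 for all but 1 gene and mostly above 0 at Weeks 12, 15 and 18.

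The difference between the diets took opposite signs at different weeks. The G2/M mean of HFC minus that of LFC was between -0.26 and 0.10 at the 4 early time points. It was -2.20 at Week 3, where 0 of 26 G2/M genes were higher in HFC, and LFC was the array with the high lymphocyte markers. It was 0.08 at Week 6 and -0.31 at Week 9, where 13 of 26 were higher in HFC. At Week 9 the lowest differences were those of Kif11 (-3.20), Bub1 (-2.91) and Ttk (-1.83), the genes that departed from the rest. The mean difference was 1.41 at Week 12 (24 of 26 higher in HFC), 0.64 at Week 15 (24 of 26) and 0.94 at Week 18 (21 higher in HFC). At Week 12 the LFC and HFC arrays were scanned on different days, and Kif11 differed by 7.26. At Week 18 Kif11 had no value in LFC, so only the HFC mean held it, at -5.59. With 1 array of each diet per week, and genes that share the array, these signs have no test.

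In HF75 most G2/M genes had an unadjusted p under 0.05 for a lower level than in HFC, in HF5 3 and in HF20 1 of 25 did, and no gene was called after adjustment. In HF75 against HFC, 16 of 25 G2/M genes were lower at an unadjusted p under 0.05, against 3.11% of all genes, and 24 of 25 had a difference below 0, against 49.8%. The medians were -1.08 for the G2/M genes, -0.12 for the 10 G1/S genes and 0.002 for all genes. After adjustment 0 of 21007 genes passed in limma, and without it 653 were lower and 405 higher.

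Cenpf, a kinetochore protein, was at -2.78, -2.38, -0.93, -1.61, -1.85 and -2.64 in HFC from Week 3 to Week 18, and at -6.13, -2.76, -2.72, -3.38, -3.38 and -6.88 in HF75. HF75 was lower at all 6 weeks, and the difference was -2.18 (SE 0.55, limma p = 0.000598, adjusted p = 0.865), with 4 of 6 HF75 arrays well above background. Hmmr, which organises spindle microtubules, was at -5.11, -4.38, -4.94, -4.91, -3.56 and -4.68 in HFC and at -6.09, -4.90, -6.07, -7.01, -6.15 and -5.67 in HF75. It too was lower at all 6 weeks, by -1.39 (SE 0.35, limma p = 0.000641, adjusted p = 0.865), and was well above background on 2 of the 6 HF75 arrays. With normexp background correction, an alternative way to remove the local background, its sign turned, to 0.50. Cdk1 was at -2.85, -2.32, -2.26, -3.27, -3.13 and -3.29 in HFC and at -5.65, -3.33, -3.18, -3.88, -5.13 and -4.75 in HF75. Its difference was -1.47 (SE 0.41, limma p = 0.00150, adjusted p = 0.865), again with HF75 lower at each week.

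Of the G1/S genes, 0 of 10 were lower and 1 was higher at an unadjusted p under 0.05 (1.93% of all genes were higher). Ccne2 was higher in HF75 at all 6 weeks, by 0.83 (SE 0.34, limma p = 0.0242, adjusted p = 0.865), with 4 of 6 HF75 and 2 of 6 HFC arrays well above background. Rrm2 was lower at all 6 weeks, by -0.69 (SE 0.36, limma p = 0.0655, adjusted p = 0.865), and was at 0.15 with normexp.

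**Figure D5:**
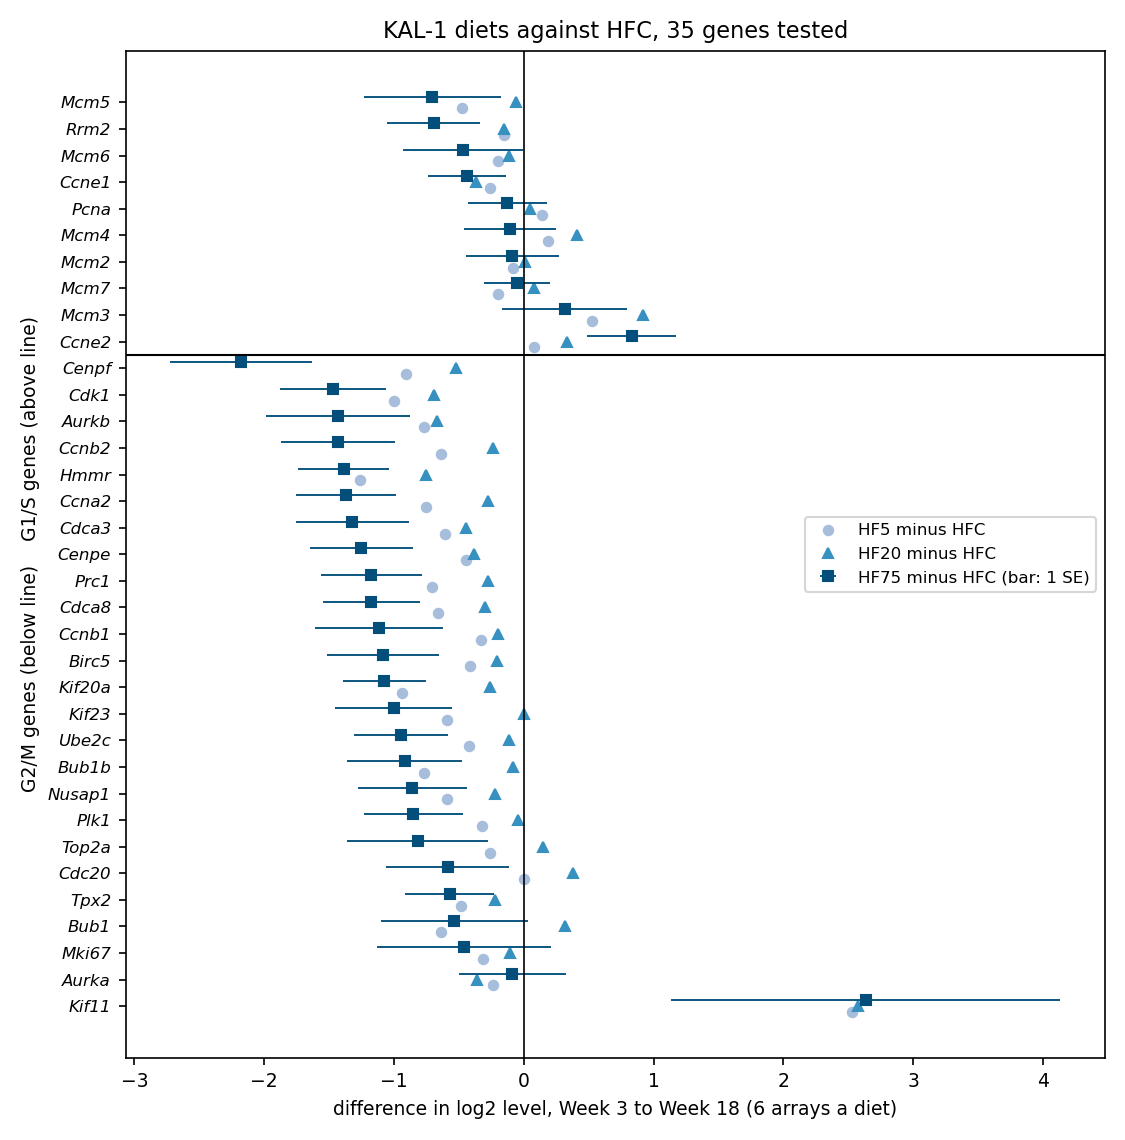
Difference in log2 level of HF5, HF20 and HF75 from HFC over Week 3 to Week 18 for the 35 genes tested (6 arrays a diet), with bars of 1 SE from limma for HF75. All G2/M genes but Kif11 sit left of 0 for HF75, down to -2.18 for Cenpf, while the G1/S genes lie on both sides.

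The other doses had G2/M medians nearer to 0, but their counts depended on the weeks used. In HF5, 3 of 25 G2/M genes were lower at an unadjusted p under 0.05 (0.652% of all genes), with a median of -0.59. Without Week 3 it was 17 of 25 (0.779% of all genes), with a median of -0.79, and with array weights 11 (1.41%). With normexp it was 1 (0.3%), with a median of -0.255, and with scan day as block the median was -0.37. The 3 were Hmmr at -1.27 (SE 0.35, limma adjusted p = 1), Kif20a at -0.94 (SE 0.32, limma adjusted p = 1) and Cdk1 at -0.998 (SE 0.41, limma adjusted p = 1). In HF20 it was Hmmr alone, at -0.75 (SE 0.35, limma adjusted p = 0.997), against 1.27% of all genes, and the G2/M median was -0.22. It was 0 of 25 without the time point block, by the methods' t-test or with an intensity trend. With normexp background correction it was 0 as well (8.29% of all genes), the median was 0.53, 6 of 25 genes were below 0 and Hmmr was at 1.47. The HF20 median was -0.50 with the array median as scaling and -0.43 without Week 3. It was -0.13 without Week 12 and -0.10 with scan day as block. Cdk1 was lower than in HFC at all 6 weeks in HF5 and in HF20, but in HF20 its difference was 0.74 with normexp and 0.14 with the mean of all probes. Of the G1/S genes, Mcm3 had the smallest p in both, at 0.52 in HF5 (SE 0.48, limma adjusted p = 1) and 0.92 in HF20 (SE 0.48, limma adjusted p = 0.997). The latter rested on the HF20 array of Week 15, where Mcm3 was at 1.54 (next highest in HF20 -0.20), and was 0.53 without that array and 0.46 without Week 15. In HF5 it was 0.31 without Week 3. The order of the medians, HF20, HF5, HF75, was not that of the doses. Where HF5 and HF20 traded places at Week 12, the medians were -0.47 in HF5 and -0.35 in HF20. The dose order ran in equal steps from HFC, without KAL-1, through HF5 and HF20 to HF75. Its slope weighs HF75 against HFC the most and is not a trend over the KAL-1 doses alone. Along the dose order the median slope of the G2/M genes was -0.26 per step, with 13 of 25 genes lower at an unadjusted p under 0.05 (2.91% of all genes) and Ccne2 higher (2.14%), at 0.27 per step (SE 0.11, limma adjusted p = 0.891). Cenpf had a slope of -0.62 per step (SE 0.17, limma adjusted p = 0.891). The 13 became 8 without the HF75 array of Week 3 (2.14% of all genes), with a median of -0.19, and 6 without Week 15 (2.04%).

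For the 3 KAL-1 diets together against HFC, 11 of 25 G2/M genes were lower (1.95% of all genes) and 1, Kif11, whose probe was well above background on 24 arrays, was higher (2.58%) at an unadjusted p under 0.05, with a median of -0.57. Leaving out Week 18 left 3 of the 25 (1.84% of all genes), Week 12 4 (3.53%), Week 15 5 (1.53%), Week 9 7 (2.76%) and Week 3 19 (1.22%). It was 3 without the time point block (1.15%), 3 by the methods' t-test (1.88%) and 2 with normexp (2.84%). Hmmr differed by -1.14 (SE 0.29, limma p = 0.000632, adjusted p = 1), and by 0.61 with normexp. The mean of the 3 diets was below HFC at all 6 weeks, but at Week 3 HF5 (-4.79) and HF20 (-4.57) were above HFC (-5.11) and HF75 (-6.09) below it. Against LFC, 13 of 25 G2/M genes and Rrm2 were lower in HF75 at an unadjusted p under 0.05 (2.84% of all genes), with a G2/M median of -0.90. The 13 became 3 without the LFC array of Week 3 (2.53% of all genes, median -0.54) and 5 without the HF75 array of Week 3 (2.44%, median -0.60). They became 1 without Week 3 (2.38%, median -0.32), 1 by the methods' t-test (1.52%), 8 without the time point block (1.66%) and 5 with normexp (0.962%, median -0.515). In HF5 only Hmmr was (1.39% of all genes; -1.23, SE 0.35, limma adjusted p = 1), and in HF20 no member had an unadjusted p under 0.05 (1.16% of all genes were lower). These comparisons share the HFC or the LFC arrays and are not independent of each other.

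The diet differences also depended on the background correction. With normexp background correction, 16 of 25 G2/M genes were below 0 in HF75 against HFC and 5 were lower at an unadjusted p under 0.05, with a median of -0.16, while the median of all genes was 0.21. The median for the KAL-1 diets together was then 0.06 and the slope along the doses 0.04, where all genes had medians of 0.18 and 0.09. Without the HF75 array of Week 3, which had the muscle markers at 7.46, 12 of 25 G2/M genes were lower at an unadjusted p under 0.05 in HF75 (2.19% of all genes) and the median was -0.77. The muscle marker mean was higher in HF75 than in HFC at 5 of 6 weeks, with means of 0.46 and -2.50 over the weeks. In HF5 and in HF20 it was also higher than in HFC at 5 of 6 weeks, with means of -0.15 and -0.47. On the other 5 HF75 arrays it ran from -2.98 to 0.50, and on the 6 late HFC arrays from -4.17 to 0.015. Without the HF5 array of Week 12 or the HF20 array of Week 15, 8 and 9 of 25 G2/M genes were lower in the KAL-1 diets together (1.87% and 1.89% of all genes), in place of 11. The lymphocyte marker mean ran from -4.81 to -0.22 in HF75 and from -4.97 to -1.57 in HFC. The macrophage marker mean (13 of 13 detected) was lower in HF75 than in HFC at 5 of 6 weeks, from -1.61 to 1.94 (mean 0.68) in HF75 against 0.64 to 2.14 (mean 1.49) in HFC. The share of probes well above background was lower in HF75 than in HFC at every week but Week 15. It ran from 49.3% to 68.9% in HF75 and from 60.2% to 68.4% in HFC. The 75th percentile intensity was lower in HF75 at Weeks 3, 6, 9 and 15. Beyond the values without single arrays, the part of these cell types and of detection was not tested.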

How the data were processed

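The 39 arrays were Agilent 1-colour arrays of total RNA labelled with Cy3. The authors deposited the scanner output of each array, whose intensity values are background-subtracted and not scaled between arrays, with flags (other) of 0 or 1 per spot, per the file headers. The submitters' processing notes name Agilent Feature Extraction 9.1, and the file headers a later version. The authors also deposited a table of log2 ratios, each taken against LFC at that time, which was used as a check of the arrays and as an alternative. Its Week 12 columns labelled HF5 and HF20 each matched the scanner array of the other (correlation 0.9986 and 0.9989, against 0.6631 and 0.6658 with their own). The labels of the scanner files were kept.

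Levels were log2 processed signal minus log2 of the 75th percentile of the array, without outlier spots, with the brightest probe for each gene name. Genes well above background on at least 10 (LFC against HFC), 8 (late against early) or 6 arrays (5 diets) and with at most 2 missing values were tested with limma 3.58.1 in R 4.3.3, with Benjamini-Hochberg adjustment over all genes and a threshold of 0.05, in 13 comparisons. Time point was a block in the diet comparisons. Arrays of a time point shared deviations from their diet means with a median correlation of 0.225 over 10 pairs of LFC and HFC, from -0.527 to 0.756. The number of arrays limits the precision, and p-values measure only the spread between them. The fits were tested on simulated data. Motifs were searched in RefSeq promoter windows.

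The 36 genes and the other lists were chosen with earlier results of these data known. Members named in a comparison were taken from the G2/M genes with the 3 smallest p and the G1/S genes with the 2 smallest p, and Mki67, Top2a, Cdk1, Ccnb1, Mcm2 and Pcna could be named in any. Kif11 in the KAL-1 diets together, and the genes whose probes differed, were named after their values were seen. Of each other list, the genes with the 2 smallest p could be named. Of the genes that this last rule would name, 1 is not reported here. The alternatives tried were other background corrections, scalings, filters and probe rules, array weights, blocks, the methods' t-test and leaving out arrays.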

Additional observations from a re-analysis of the deposited data

Results flagged for a closer look

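In LFC (10 arrays), HF5, HF20 and HF75 (6 each), 11 of 152 sets of values had 1 array far from the rest, where chance gives about 1 in 20. The 11 HFC arrays were not tested in this way, and the lowest of them was that of Day 1 for the mean of the G2/M genes, at -4.18, and for Mki67, at -3.28. The HF75 array of Week 3 was the lowest of its diet for the mean of the G1/S genes, at -1.53 (next lowest -0.34), for Mcm3 at -3.58 (-0.91), Mcm4 at 0.36 (2.16), Mcm6 at -0.024 (2.14) and Mki67 at -2.69 (1.14). It had the skeletal muscle markers at 7.46 and the lowest share of probes well above background. Their part in these values was not tested. The LFC array of Week 12 was the lowest of its diet for Mcm3, at -2.60 (next lowest -1.19), and for Mki67, at -0.60 (1.47). In HF5, Mcm2 was high at Week 9, at -0.98 (next highest -1.65), Hmmr was high at Week 3, at -4.79 (-5.82), and Ccnb1 was low at Week 12, at -4.65 (next lowest -3.47). In HF20, Mcm3 was high at Week 15, at 1.54 (next highest -0.20).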

How the results depend on the processing

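For the late against early level, 43 genes and 3 members were called. With normexp background correction it was 3 genes and 0 members, with the array median 76 genes, without a filter 23 and 0, with probes well above background on every array 7 and 0, by the methods' t-test 22 and 0, with array weights 255 and 12, with scan day or time point as a random block 1 and 0, without the LFC array of Week 3 119 and 17, and without each time point in turn 3 to 162 genes and 0 to 17 members.

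For the change per week, Week 3 to Week 18, 20 genes and 0 members were called. It was 1 gene with normexp, 33 genes and 3 members with the array median, 3 members with quantile normalization, 4 genes with all probes, 3 without a filter, 7 with every array, 1 member with an intensity trend, 426 genes and 9 members with array weights, 0 genes with scan day, 1 with time point or slide as a random block, 3 members without the HF75 and 1 gene without the LFC array of Week 3, 1 member without the HF5 array of Week 12, and 0 to 2873 genes and 0 to 15 members without each week in turn. In HF20 against HFC, normexp gave 8034 genes, 8 members and a G2/M median of 0.53. It gave G2/M medians of -0.16 in HF75 against HFC and 0.038 along the doses. The G1/S median in HF75 against LFC ran from -0.50 to 0.13 without each week in turn, 0.13 without Week 3. The cause was not tested.

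Signs turned for 22 differences of single genes. With normexp these were Cdk1 at -0.28 in HFC against LFC over all time points, Kif20a at -0.14 and Cenpf at -0.17 in HFC against LFC from Week 3, Hmmr at 1.47 and Cdk1 at 0.74 in HF20 against HFC, Hmmr at 0.68, Aurkb at 0.55 and Mcm2 at 0.10 in HF20 against LFC, Hmmr at 0.50 and Rrm2 at 0.15 in HF75 against HFC, Hmmr at 0.61 and Cdk1 at 0.13 in the KAL-1 diets together, and Hmmr at 0.31, Cdk1 at 0.10 and Rrm2 at 0.14 along the doses. With quantile normalization, Ccne2 was at 0.049 in the late minus early effect of HFC and 0.19 in HFC against LFC from Week 3. With all probes Cdk1 was at 0.14 in HF20 against HFC. In HFC against LFC from Week 3, Mcm2 was at 0.034 with array weights, 0.005 with slide as a random block and from -0.655 to 0.140 without each week in turn, 0.140 without Week 3. Pcna late against early ran from -0.189 to 0.075 without each time point in turn, 0.075 without Day 14.

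Time point as a random block and leaving out single arrays were chosen after seeing the data. Without the time point block, the diet comparisons paired by time point also called 0 genes, and the G2/M median in HF75 against HFC was -1.08. Exchanging the Week 12 arrays of HF5 and HF20 gave 14 G2/M genes lower along the doses at an unadjusted p under 0.05 (2.84% of all genes), against 13 (2.91%). The G2/M medians against HFC were then -0.47 in HF5 and -0.35 in HF20. Slide as a random block could not be fitted on the 20 arrays of LFC and HFC. Dim probes limit Ttk, Kif11, Ccne2, Hmmr and Aurkb, which were well above background on 3, 24, 26, 26 and 28 of the arrays.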
